A study of Mus musculus with 4 samples.

Results

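Transcripts of the cytosolic ribosomal protein genes were read in cardiac cushions from mouse embryos at embryonic day 14.5. Cushions are local swellings of the embryonic heart (here of its outflow tract and its atrioventricular canal) from which valves form. The genes were taken from the table of raw counts by symbol, as rows named Rpl or Rps with a digit plus Rplp0, Rplp1, Rplp2 and Rpsa. Pseudogene rows and the Rps6k kinases were left out. The rule gave 86 of 23337 gene rows, of which 31 encode small subunit proteins, 46 encode large subunit proteins and 8 are paralogs. The remaining row, Rps19bp1, has a matching name but encodes a protein that binds Rps19 and is not part of the ribosome.

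The groups were 2 libraries of Nfatc1Cre;Brg1F/F mutants and 2 of wildtype littermates, all labelled C57BL/6. In the mutants a floxed Brg1 (Smarca4), which encodes the motor subunit of SWI/SNF chromatin remodellers, is recombined by a Cre under Nfatc1, a gene of the endocardium. Cushions were dissected by the green fluorescence of a Cre reporter, so a library holds every cell type of the dissected tissue, and the labels do not give the number of embryos per library. They also do not say whether the wildtype littermates carried the Cre. The series describes 2 pairs, and libraries of the same replicate number are called pair 1 and pair 2. Since separate embryos are not stated, the p-values below refer to the spread among these 4 libraries, part of which may be technical.

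A ribosome is built from a small subunit, which decodes the messenger RNA, and a large subunit, which joins amino acids. Each contains ribosomal RNA and a set of proteins needed in near equal amounts, and the mRNAs for these proteins are among the most abundant of growing cells. In mammals most of them start with a cytosine followed by a run of pyrimidines, the 5′ terminal oligopyrimidine (TOP) motif, through which the mTOR pathway and the protein Larp1 control their translation and stability. Loss of a single copy of several of these genes causes Diamond-Blackfan anaemia in humans, a syndrome of red cell failure that can include heart defects.

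The start of the gene is shown first, since the pyrimidine run is the feature these genes are known to share. Start windows of 30 bases, 15 before and 15 from a start that RefSeq lists (build GRCm38.p6), were found for 65 of the 86 rows. Where RefSeq lists several starts, the window with the longest run of C and T was taken for the gene. Capitals mark the longest run of C and T in each window, which is written 5′ to 3′ on the gene's own strand. The first 4 genes are shown for their clear runs, and the other 6 because the results below turn on them.

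Rpl27a: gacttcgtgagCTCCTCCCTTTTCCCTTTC
Rpl7a: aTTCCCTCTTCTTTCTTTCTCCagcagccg
Rpl15: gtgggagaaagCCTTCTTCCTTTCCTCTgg
Rps6: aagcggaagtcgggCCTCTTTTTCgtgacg
Rplp2: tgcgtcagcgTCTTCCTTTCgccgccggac
Rps2: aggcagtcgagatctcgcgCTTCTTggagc
Rps13: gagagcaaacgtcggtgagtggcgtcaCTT
Rps23: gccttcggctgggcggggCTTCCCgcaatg
Rpl34: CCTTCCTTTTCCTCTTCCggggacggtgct
Rps27: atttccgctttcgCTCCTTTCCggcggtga

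The windows of Rpl27a, Rpl7a and Rps2 lie on the plus strand at chr7:109519180-109519209, chr2:26910792-26910821 and chr17:24720048-24720077. Those of Rplp2 and Rps23 lie on the plus strand at chr7:141447636-141447665 and chr13:90923107-90923136. The minus strand holds those of Rpl15 at chr14:18270972-18271001, Rps6 at chr4:86857353-86857382, Rps13 at chr7:116334176-116334205, Rpl34 at chr3:130730323-130730352 and Rps27 at chr3:90213634-90213663. A pyrimidine run of at least 8 bases was present in 27 of the 65 windows (41.5%). Among all listed genes, with windows taken in the same way, it was present in 3760 of 27025 (13.9%). Purine runs, which the same letters on the opposite strand would give, were read over all listed starts of a gene. They can therefore lie outside the window taken above. A purine run of at least 8 bases was present for 3 of the 65 rows (4.62%), against 15.3% of all listed genes. The 5-letter motif CTTTC was likewise sought in all listed starts of a gene. On the gene's strand it occurred for 17 of the 65 rows (26.2%), against 4.76% of all listed genes. On the other strand it occurred for 3 (4.62%), against 4.21%. In 19 of the 65 windows the longest run, of any length, spanned the listed start itself. These included runs of 3 bases in Rps19bp1 and 4 bases in Rps28, and the share over all genes was not counted. Among the genes with the highest log2 fold changes by genotype, the longest runs were 6 bases in Rps2, 10 in Rplp2, 3 in Rps15, 7 in Rps19 and 4 in Rpl37a. Among those with the most negative ones, they were 3 bases in Rps13, 9 in Rps27l, 6 in Rps23, 5 in Rps16 and 13 in Rps10. The listed start can lie some bases from the start used in this tissue, so a short run describes only these letters.

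The libraries held 22426537 and 14104458 reads in genes for the mutants and 19218820 and 15790338 for the wildtype. At this depth 3 reads correspond to 0.134 to 0.213 CPM, the read count relative to the scaled library total. Smarca4 had 282 and 239 CPM in mutant replicates 1 and 2, against 251 and 231 CPM in the wildtype, a log2 fold change of 0.11 ± 0.14 (SE). The count over the whole gene was thus not lower in the mutants, takes in undeleted exons and cells without Cre, and does not check the genotype labels. Nfatc1 had 52.99 and 34.5 CPM in the mutants and 44.3 and 55.2 CPM in the wildtype. Xist, the RNA of the inactive X chromosome, had 2659 and 13.3 CPM in mutant replicates 1 and 2, against 2047 and 2317 CPM in the wildtype. Reads of Y-linked genes numbered 0 and 8400 in the mutants, against 0 and 72 in the wildtype, so mutant replicate 2 differed from the other 3 libraries in these sex-linked transcripts. Endocardial, cushion mesenchyme and cardiomyocyte markers were all detected in every library. Of 8 endocardial markers, 2 were lower and 0 higher at an unadjusted p under 0.05 by edgeR, against 1.90% of all tested genes lower. After adjustment 0 passed by edgeR, 1 was lower with the replicate number as a block and 1 by DESeq2. At an unadjusted p under 0.05 by edgeR, 2 of 7 erythroid and 3 of 5 hepatocyte markers tested were higher and 0 lower. Of all tested genes, 3.88% were higher and 1.90% lower. Negative log2 fold changes were found in 1 erythroid and 2 hepatocyte markers. The 8 hepatocyte markers listed summed to only 31.7 and 43.4 CPM in the mutants and 23.9 and 22.6 CPM in the wildtype. Leukocyte markers summed to 223 and 250 CPM in the mutants, against 144 and 138 CPM in the wildtype. By edgeR 3 of 8 were higher past an adjusted p of 0.05 (Ptprc, Cybb and Ctss), where 8 of all 14316 tested genes were. In bulk tissue, fewer cells of a type and less RNA per cell cannot be told apart.

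Ribosomal protein transcripts were abundant and spread over a broad range of levels. Per length, as CPM per kilobase of the annotated transcript, the median of the 80 rows that passed the filter on low counts was 386, and 10% of them lay below 107 and 10% above 817. The highest level was that of Rps24, a small subunit protein mutated in Diamond-Blackfan anaemia, with 2086 and 2213 CPM per kilobase in the mutants and 2270 and 2084 in the wildtype. Rpl36a, an X-linked large subunit gene, followed with 972 and 1620 CPM per kilobase in the mutants and 1276 and 1133 in the wildtype. Rpl23a, which sits at the exit of the peptide tunnel, had 973 and 1318 CPM per kilobase in the mutants and 1252 and 1137 in the wildtype. The levels of Rpl36a and Rpl23a overlapped from library to library, as did those of the next genes. Rps3a, a small subunit protein, had 804 and 1219 CPM per kilobase in the mutants and 1163 and 968 in the wildtype. Rplp1, the fifth, is described with the stalk below.

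**Figure D1:**
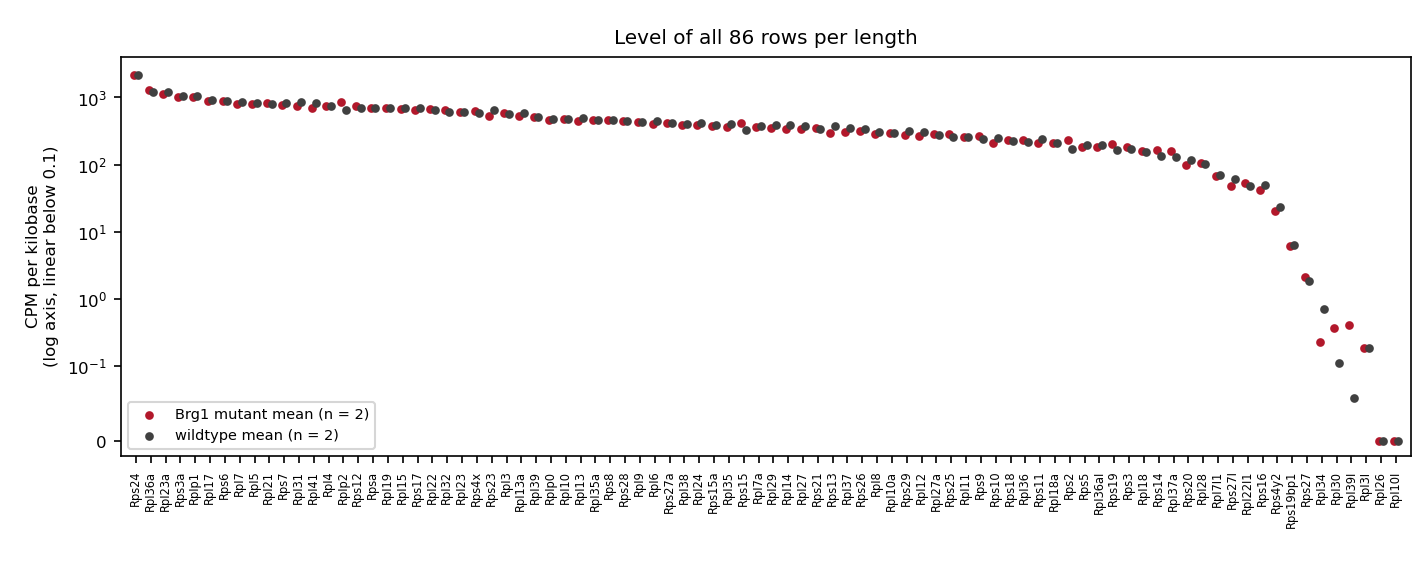
Level of each of the 86 rows as CPM per kilobase of transcript on a log axis (linear below 0.1), with the mean of the 2 mutant libraries in red and of the 2 wildtype libraries in grey. Rps24 stands highest, and Rps27, Rpl34, Rpl30 and Rpl26 lie far below the other subunit genes.

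Of the 77 subunit genes, 4 were at or near 0 reads. Rpl26, a large subunit gene, had 0 reads in all 4 libraries, which allows up to 0.134 to 0.213 CPM. Rpl30 had 0 and 6 reads in the mutants and 0 and 2 in the wildtype. Rpl34, whose start holds one of the longest runs shown, had 5 and 0 reads in the mutants and 8 and 4 in the wildtype. Rps27 had 0.616 and 0.847 CPM in the mutants and 0.905 and 0.379 CPM in the wildtype. All 4 encode subunits that cytosolic ribosomes of other mouse tissues contain. Of the 50-base stretches of the annotated transcript, 28.7% in Rpl26, 23.6% in Rpl30, 49.4% in Rpl34 and 1.35% in Rps27 were found in no other annotated gene. Reads with several alignments were tallied in a row of their own, 16.1% to 17.0% of tallied reads, outside the gene rows. The part of this in these near-zero counts was not tested.

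Sharing of sequence with other genes, mostly processed pseudogenes, is general in this family. The median row had 41.3% of its 50-base stretches in no other annotated gene, 54 of 86 rows had under 50%, and 6 had under 10%. Across the 86 rows the unique share and the level per length had a Spearman rho of -0.37, a description in which all points share the same 4 libraries. The rho takes in rows of low level with mostly unique sequence, such as Rpl3l, Rpl39l and Rps19bp1 (100% each). It therefore does not show whether shared sequence lowers the counts of subunit genes. The count of each row with few unique stretches is uncertain. Rps20 was measured against an annotated transcript of 3706 bases and Rpl5 of 2045 bases, long for these genes, so their levels per length depend on that annotation. Reads in CPM for Rps20 were 336 and 399 in the mutants and 498 and 366 in the wildtype.

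The design sets Brg1-deficient cushions against those of littermates. The ribosomal protein genes as a whole took 2.60% (95% interval 2.59% to 2.61%) and 3.26% (3.25% to 3.27%) of gene reads in mutant replicates 1 and 2, against 3.08% (3.08% to 3.09%) and 2.79% (2.78% to 2.80%) in the wildtype. These exact binomial intervals cover counting error only and treat reads as independent, which PCR copies are not. The mutant libraries were the lowest and the highest of the 4, on either side of the wildtype. The mean share was 2.93% ± 0.469 in mutants and 2.94% ± 0.209 in wildtype (SD, n = 2 each; two-sided exact permutation p = 1, where 2 against 2 cannot go below 0.333). No difference in the total by genotype was detectable beyond the spread between libraries.

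Gene by gene, 80 of the 86 rows were tested in the fit over all 14316 genes that passed the filter. In edgeR's quasi-likelihood fit 0 of them passed the threshold of 0.05 on the adjusted p, where 9 of all tested genes (0.0629%) did. At an unadjusted p under 0.05, 2 were higher in mutants, Rps2 and Rplp2, against 3.88% of all tested genes, and 0 were lower, against 1.90%. With the replicate number as a block, 0 of 80 passed while 0.887% of all tested genes did, and by DESeq2 0 passed while 0.426% did. In the authors' deposited table, 79 of the members had a row and 0 were past its adjusted p of 0.05, where 0.374% of its rows were. The log2 fold changes ran from -0.36 for Rps13 to 0.42 for Rps2, with a median of -0.03 against 0.00 over all tested genes. Their median standard error was 0.18, 44 of the 80 were within 0.1 of no difference, and 8 exceeded 0.3 in size.

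**Figure D2:**
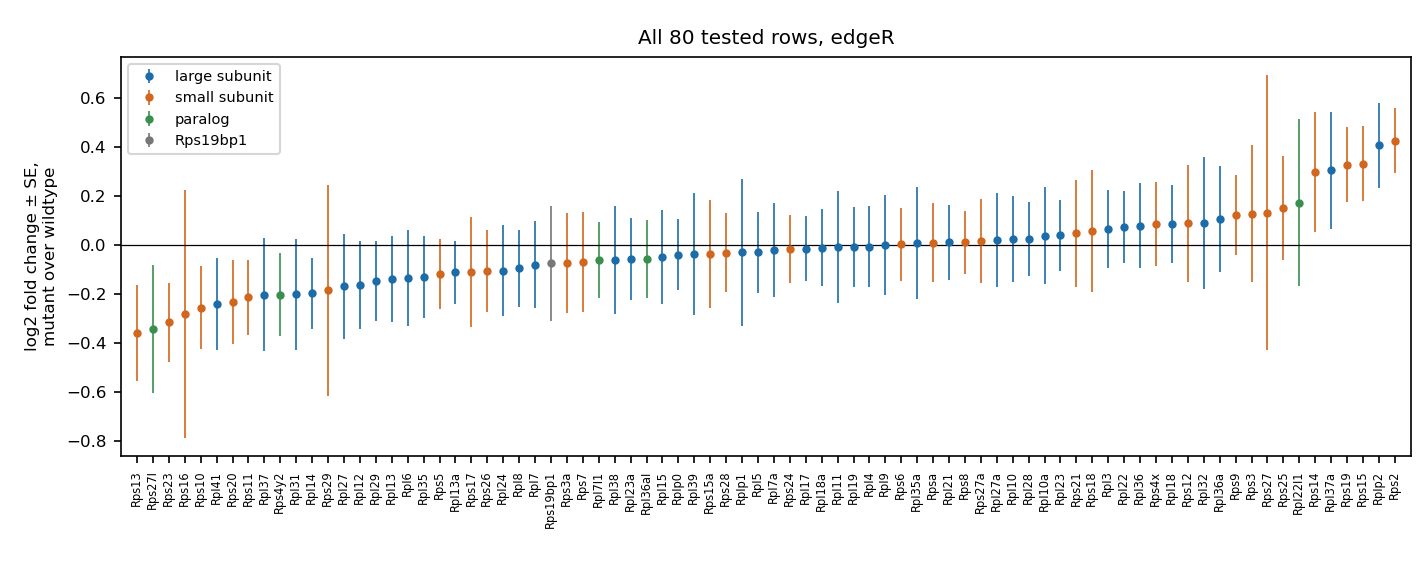
Log2 fold change of mutant over wildtype for the 80 tested rows, ordered by size, with the standard error of the edgeR fit as bars and colours for large subunit, small subunit, paralog and Rps19bp1. Most bars cross 0, and the ends of the order are Rps13 at -0.36 and Rps2 at 0.42.

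Rps2, a small subunit protein at the entry of the mRNA channel, had 210 and 248 CPM in the mutants, against 175 and 166 CPM in the wildtype. Both mutant libraries lay above both wildtype libraries. The log2 fold change of 0.42 ± 0.13 (SE) had an edgeR p of 0.0109, and of 0.534 after adjustment. The gene spans chr17:24718116-24721929 (GRCm38), is protein coding, and shares 50-base stretches with 71 other annotated genes.

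Rplp2 is one of the acidic proteins of the stalk, the arm of the large subunit that recruits elongation factors. It had 332 and 391 CPM in the mutants, against 229 and 317 CPM in the wildtype, and the groups did not overlap. The log2 fold change of 0.41 ± 0.17 (SE) had an edgeR p of 0.0432, and of 0.837 after adjustment. Its partner Rplp1 had 640 and 378 CPM in the mutants and 677 and 364 CPM in the wildtype, a log2 fold change of -0.03 ± 0.30 (SE). Both replicate 1 libraries of Rplp1 thus lay above both replicate 2 libraries, whatever the genotype. Rplp0, which anchors the stalk, had 598 and 678 CPM in the mutants and 704 and 608 CPM in the wildtype. The 3 stalk genes therefore showed no shared order of the libraries.

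Rps15 and Rps19, proteins of the head of the small subunit, were next. Rps15 had 178 and 236 CPM in the mutants and 165 and 164 CPM in the wildtype (log2 fold change 0.33 ± 0.15, SE). Rps19, the gene first linked to Diamond-Blackfan anaemia, had 123 and 136 CPM in the mutants and 89.6 and 117 CPM in the wildtype (0.33 ± 0.15, SE). In both genes the groups did not overlap, and the adjusted p was 0.891 in each by edgeR. Rpl37a, a small zinc-binding protein of the large subunit, had 66.3 and 115 CPM in the mutants and 64.1 and 82.6 CPM in the wildtype, which overlap. In all, 4 of the 80 rows had both mutant libraries above both wildtype libraries, against 17.0% of all tested genes.

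At the other end stood Rps13, which binds the central domain of the small subunit RNA. It had 140 and 211 CPM in the mutants and 248 and 201 CPM in the wildtype, with the lowest and the second highest library both mutant. Its log2 fold change of -0.36 ± 0.20 (SE) had an edgeR adjusted p of 0.935. Rps23, a protein of the decoding centre, had 438 and 556 CPM in the mutants and 668 and 571 CPM in the wildtype (-0.32 ± 0.16, SE). Its groups did not overlap. Rps10, a protein of the head, had 94.3 and 117 CPM in the mutants and 144 and 108 CPM in the wildtype (-0.26 ± 0.17, SE), which overlap. Rps16, at the decoding side of the small subunit, had 30.5 and 61.4 CPM in the mutants and 23.9 and 87.8 CPM in the wildtype. Its wildtype replicates differed by 1.87 on the log2 scale, the largest ratio within a genotype of these genes. With Rpl13a and the paralog Rps4y2, Rps23 made 3 rows with both mutant libraries below both wildtype libraries, against 16.3% of all tested genes. Non-overlap in either direction was thus found in 7 of 80 rows, where 33.2% of all tested genes showed it.

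Small and large subunit genes overlapped in their values. Among the 31 small subunit rows, 16 had a positive and 15 a negative log2 fold change, and the median was 0.00. Among the 43 tested large subunit rows, 15 were positive and 28 negative, and the median was -0.02. Rpl5 and Rpl11, which carry the 5S ribosomal RNA into the large subunit and inhibit Mdm2 when ribosome assembly is disturbed, measured -0.03 ± 0.17 and -0.01 ± 0.23 (SE). Rpl11 had 164 and 269 CPM in the mutants and 185 and 251 CPM in the wildtype. Among 19 tested genes mutated in Diamond-Blackfan anaemia, the median was -0.05 and 0 passed at an unadjusted p under 0.05.

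Of the members followed for known roles, Rps6, Rpsa and Rpl38 had values near no difference, while Rps19, given above, measured 0.33. Rps6, the substrate of the S6 kinases, had 707 and 851 CPM in the mutants and 806 and 751 CPM in the wildtype (log2 fold change 0.00 ± 0.15, SE). Rpsa, a small subunit protein also known as the laminin receptor, had 1045 and 1200 CPM in the mutants and 1241 and 993 CPM in the wildtype (0.01 ± 0.16, SE). Rpl38, whose loss in mice alters the translation of Hox mRNAs and the axial skeleton, had 100.6 and 170 CPM in the mutants and 131 and 152 CPM in the wildtype (-0.06 ± 0.22, SE). Rps19bp1 had 5.19 and 5.01 CPM in the mutants and 5.59 and 5.17 CPM in the wildtype. In Rps6, Rpsa, Rpl38 and Rps19bp1 the libraries of both genotypes overlapped.

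Rps27a is made as a fusion of ubiquitin and a small subunit protein, and had 229 and 307 CPM in the mutants and 237 and 293 CPM in the wildtype. The libraries of both genotypes overlapped, and the log2 fold change was 0.01 ± 0.17 (SE).

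As counted, paralog levels differed from those of their core copies, in most cases by being lower. Rpl22l1, a copy that cells can use in place of Rpl22, had 31.7 and 76.0 CPM per kilobase in the mutants and 41.5 and 53.4 in the wildtype. Rpl22 itself had 601 and 746 CPM per kilobase in the mutants and 675 and 605 in the wildtype. Rps27l, a copy of Rps27 induced by p53 in human cells, had 34.0 and 63.5 CPM per kilobase in the mutants and 58.2 and 64.9 in the wildtype. The row of Rps27 had 1.79 and 2.46 in the mutants and 2.62 and 1.10 in the wildtype. Unique stretches made up 77.6% of Rps27l but 1.35% of Rps27, and reads with several alignments lie outside the gene rows. These counts therefore do not rank Rps27l against Rps27. Rpl36al had 167 and 205 CPM per kilobase in the mutants and 215 and 172 in the wildtype, against the higher levels of Rpl36a given above. Rpl7l1 had 75.9 and 99.6 CPM in the mutants and 94.5 and 88.7 CPM in the wildtype. Rpl3l, the copy of Rpl3 made in adult striated muscle, had 7 and 3 reads in the mutants and 5 and 4 in the wildtype, while Rpl3 had 826 and 773 CPM in the mutants and 864 and 665 CPM in the wildtype. Rpl39l, known from male germ cells in mice, had 7 and 2 reads in the mutants and 0 and 1 in the wildtype. Rpl10l, also known from the testis, had 0 reads in every library. Rps4y2, which RefSeq lists as Rps4l on chromosome 6 and GENCODE as a transcribed processed pseudogene, had 15.4 and 16.7 CPM in the mutants and 17.8 and 19.1 CPM in the wildtype. None of the 5 tested paralogs passed at an unadjusted p under 0.05, and their median log2 fold change was -0.06.

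The near-zero median of the comparison came from pairs that differed in opposite directions. In pair 1 the mutant library was lower for 73 of the 80 rows, with a median log2 difference of -0.32. In pair 2 the mutant library was higher for 72 of them, with a median of 0.22. Over all tested genes both medians were 0.00. Lower in pair 1 and higher in pair 2 was the order of 66 of the 80 rows (82.5%), against 26.2% of all tested genes. Of the others, 6 were higher in both pairs, 7 were lower in both and 1, Rps16, was higher in pair 1 and lower in pair 2.

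**Figure D3:**
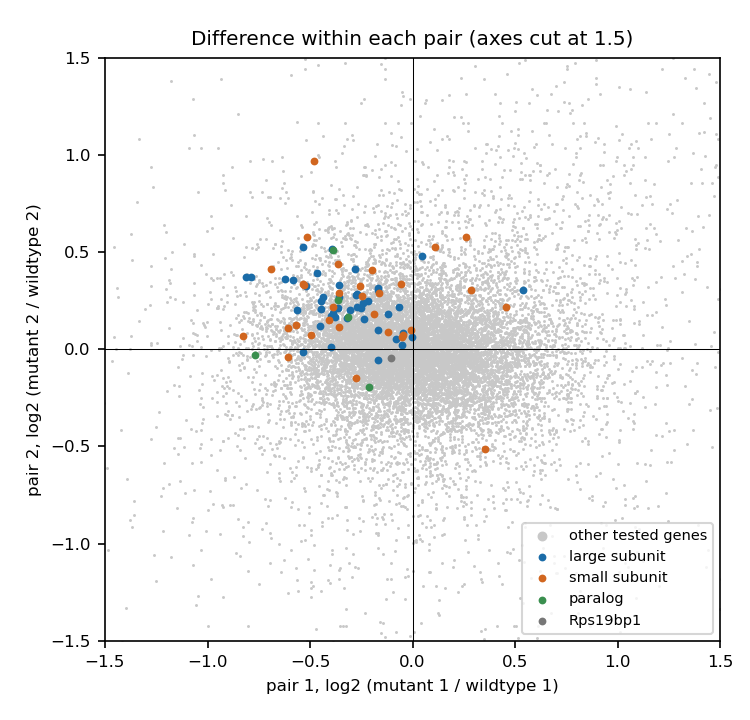
Log2 difference of mutant over wildtype within pair 1 (horizontal axis) and pair 2 (vertical axis), with all other tested genes in grey and ribosomal protein rows coloured by role. Most coloured points lie in the upper left, lower in pair 1 and higher in pair 2, where 66 of 80 fell, while the grey points centre on 0.

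Both subunits showed this order, in 24 of 31 small subunit rows and 39 of 43 large subunit rows. It was also seen in 17 of 19 genes of Diamond-Blackfan anaemia, in all 4 X-linked members (Rpl10, Rpl36a, Rpl39 and Rps4x) and in 3 of 5 paralogs. Across the 80 rows the difference in pair 1 and that in pair 2 had a Pearson r of -0.15, so the size of the difference in one pair was only weakly related to that in the other. The difference in pair 1 had a Spearman rho of 0.10 with transcript length and -0.09 with the level per length. In pair 2 the rho values were -0.21 and 0.07. Members with a start run of at least 8 pyrimidines had medians of -0.37 in pair 1 and 0.21 in pair 2 (26 tested rows), and those with a shorter run had -0.29 and 0.28 (34 tested rows). All of these correlations share the same 4 libraries and are given as descriptions.

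Measured against each gene's own mean over the 4 libraries, the median member stood at -0.23 in mutant replicate 1 and 0.19 in mutant replicate 2 on the log2 scale, against 0.09 and -0.04 in wildtype replicates 1 and 2. Mutant replicate 1 was the lowest library for 55 of the 80 rows and the highest for 0. Mutant replicate 2 was the highest for 42 and the lowest for 1. Wildtype replicate 1 was the highest for 33 and wildtype replicate 2 for 5. The mutant libraries were thus farther from each other than the wildtype libraries, and the wildtype lay between them.

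**Figure D4:**
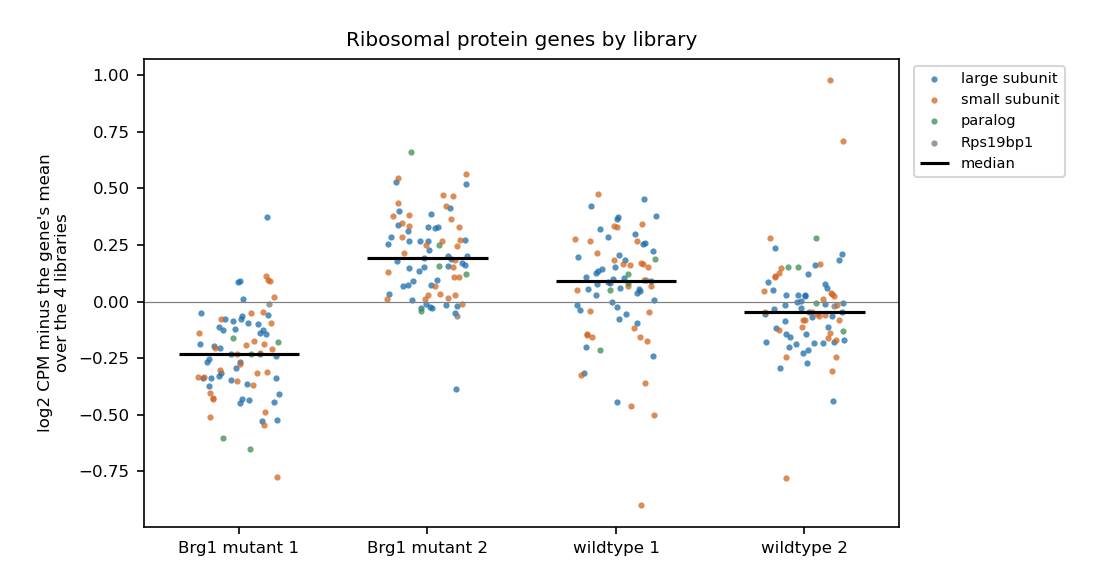
Each point is a ribosomal protein row in a library, as log2 CPM minus the mean of that gene over the 4 libraries, with the median as a black bar and colours for the role. The medians are -0.23 and 0.19 in Brg1 mutants 1 and 2 and 0.09 and -0.04 in wildtype 1 and 2.

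Leaving out a library changed the calls. Without mutant replicate 2, 7 rows were lower past an adjusted p of 0.05 by edgeR, where 1.13% of all tested genes were. They were Rps29, Rps16, Rps27l, Rps13, Rpl37, Rpl39 and Rpl41, with log2 fold changes from -0.99 for Rps29 to -0.57 for Rpl41. Rps16 had 30.5 CPM in mutant replicate 1, between the 23.9 and 87.8 CPM of wildtype replicates 1 and 2. Rps29 had 61.0 CPM in mutant replicate 1, against 73.7 and 170 CPM in wildtype replicates 1 and 2. Like Rps29, the other named rows had mutant replicate 1 below both wildtype libraries. Without mutant replicate 1, 3 rows were higher, where 0.770% of all tested genes were. These were Rpl22l1 at 0.68, Rpl37a at 0.65 and Rps14 at 0.59. In these fits a lone mutant library is assumed to vary like the wildtype. The median log2 fold change of the tested members was -0.26 without mutant replicate 2 and 0.14 without mutant replicate 1, so its sign depended on which mutant library was kept. At an unadjusted p under 0.05, 31 rows were lower without mutant replicate 2, against 6.20% of all tested genes, and 17 were higher without mutant replicate 1, against 3.54%. Without wildtype replicate 1 or 2, 0 members passed, while 0.0411% and 0.0203% of all tested genes did.

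Mutant replicate 2 was also the library that differed in sex-linked transcripts, and it had the fewest gene reads. Cardiomyocyte markers summed to 52682 and 55774 CPM in mutant replicates 1 and 2, against 65748 and 59291 CPM in the wildtype. All 8 had negative log2 fold changes, and 2 were lower at an unadjusted p under 0.05 by edgeR, against 1.90% of all tested genes. After adjustment 0 passed by edgeR, 1 was lower with the replicate block and 1 by DESeq2, Nppa in each case. Leukocyte markers, given above, were higher in both mutants. The parts of sex, depth and cell makeup in the order of the ribosomal protein genes were not tested, and with 1 library of each kind they cannot be told apart from the library itself. The slope of a gene's deviation over transcript length was 0.03 log2 units per doubling in mutant replicate 1 and -0.01 in mutant replicate 2, against -0.02 and 0.00 in wildtype replicates 1 and 2. With that trend removed from each library, the medians were -0.25 in pair 1 and 0.20 in pair 2.

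In some members the libraries were set apart by replicate number in both genotypes. In 22 of the 80 rows both replicate 2 libraries lay above both replicate 1 libraries, against 15.7% of all tested genes, and in 6 they lay below, against 15.4%. Rps29, a zinc-binding protein of the small subunit head, had 61.0 CPM in mutant 1 and 154 CPM in mutant 2, and 73.7 CPM in wildtype 1 and 170 CPM in wildtype 2. Rps18, also of the head, had 99.8 CPM in mutant 1 and 164 CPM in mutant 2, and 100.4 CPM in wildtype 1 and 153 CPM in wildtype 2. Rps14, which lies at the platform of the small subunit, had 77.7 and 122 CPM in mutants 1 and 2, and 63.6 and 98.3 CPM in wildtype 1 and 2. Rplp1 went the other way, with the values given above. Over the members, the deviations of same-numbered libraries from their genotype means had a correlation of 0.57, against 0.14 over all tested genes.

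**Figure D5:**
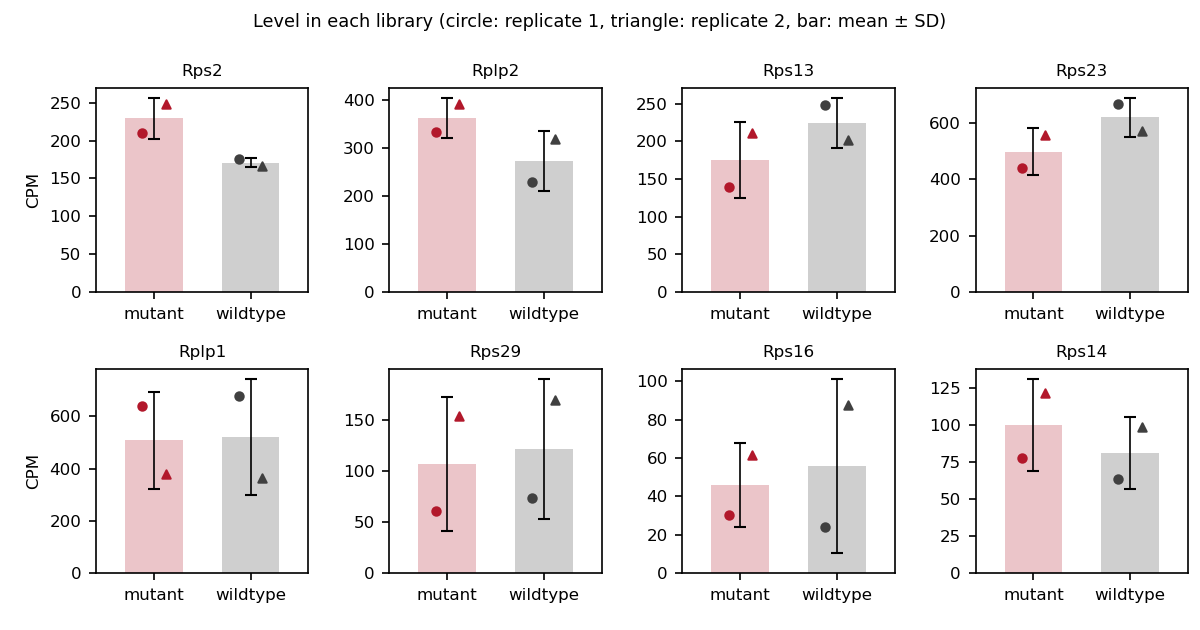
CPM of 8 members in each library, with circles for replicate 1, triangles for replicate 2, and bars for the mean ± SD of 2 libraries. In Rps2 and Rplp2 both mutant libraries lie above both wildtype libraries, while in Rps29, Rps16, Rps14 and Rplp1 the replicates are set apart in both genotypes.

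Several members serve as reference genes in quantitative PCR, and 6 of these were followed. Rpl13a had 554 and 575 CPM in the mutants and 622 and 599 CPM in the wildtype, a narrow range. Rpl19 had 482 and 530 CPM in the mutants and 582 and 435 CPM in the wildtype. Rpl32 had 220 and 453 CPM in the mutants, against 318 and 314 CPM in the wildtype, so the mutants lay on either side of a narrow wildtype range. With Rplp0, Rps18 and Rps29 above, the 6 genes had log2 fold changes of -0.19 to 0.09, and by edgeR 0 passed and 0 had an unadjusted p under 0.05. Among 11 tested reference genes outside the ribosome the median was 0.06, with Actb at 0.16 ± 0.15 and Ppia at 0.00 ± 0.16 (SE).

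Other genes of protein synthesis were compared within the pairs in the same way. Over all tested genes, 26.2% were lower in pair 1 and higher in pair 2. The 76 mitochondrial ribosomal protein genes, whose products make the separate ribosome of mitochondria, had medians of -0.32 in pair 1 and 0.10 in pair 2, and 50 of them (65.8%) were lower in pair 1 and higher in pair 2. Their median log2 fold change was -0.12, with 61 of 76 negative, 2 lower at an unadjusted p under 0.05 and 0 past the adjusted threshold. Mrpl39 had 65.0 and 84.0 CPM in the mutants and 95.5 and 69.1 CPM in the wildtype. Mrpl18 had 72.2 and 73.4 CPM in the mutants and 98.4 and 68.2 CPM in the wildtype.

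The 20 genes outside the ribosome whose mRNAs also start with a TOP motif had medians of -0.07 in pair 1 and 0.12 in pair 2. The order of the members was found in 11 of the 20 (55%), against 26.2% of all tested genes. By genotype the median of the 20 genes was 0.02, and 0 passed or had an unadjusted p under 0.05 by edgeR. Eef1a1, the factor that brings tRNA to the ribosome, had 4486 and 5553 CPM in the mutants and 5837 and 4965 CPM in the wildtype. Npm1, the nucleolar chaperone nucleophosmin, had 1202 and 1288 CPM in the mutants and 1497 and 1188 CPM in the wildtype. Among 9 tested non-coding hosts of small nucleolar RNAs the medians were -0.34 and 0.15. Of these, Gas5 measured -0.04 ± 0.15 and Snhg1 -0.23 ± 0.17 (SE) by genotype.

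Genes that build or control ribosomes had other medians. The 48 genes of ribosome biogenesis had 0.06 in pair 1 and 0.05 in pair 2. Of the 48, 18 (37.5%) were lower in pair 1 and higher in pair 2, against 26.2% of all tested genes. By edgeR, 0 of the 48 passed and 0 had an unadjusted p under 0.05. Ncl, the nucleolar protein nucleolin, had 639 and 504 CPM in the mutants and 378 and 592 CPM in the wildtype. Mdn1, the ATPase that remodels large subunit precursors, measured 0.13 ± 0.13 (SE). The 15 regulators of ribosomal protein synthesis had medians of 0.14 and -0.05, and 1 of them had the order of the members. Larp1 had 186 and 151 CPM in the mutants and 138 and 147 CPM in the wildtype, and Eif4e, the cap-binding protein, had 167 and 182 CPM in the mutants and 227 and 187 CPM in the wildtype. Among the regulators 1 gene, Myc, was higher at an unadjusted p under 0.05, with a log2 fold change of 0.64 and an adjusted p of 0.748 by edgeR. The 29 tested initiation and elongation factors had a median of -0.02 by genotype, 0 past the adjusted threshold and 1 higher at an unadjusted p under 0.05 (Eif1). Of these, Eif4g2 and Eif3a, the most abundant, measured 0.14 ± 0.14 and -0.02 ± 0.14 (SE). The 10 genes of p53 and its targets, which respond when ribosome assembly fails, had a median of 0.13 by genotype, and by edgeR 0 passed and 0 had an unadjusted p under 0.05. Of these, Ccng1 had 306 and 347 CPM in the mutants and 397 and 304 CPM in the wildtype, and Mdm4 165 and 161 CPM in the mutants and 155 and 173 CPM in the wildtype.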

How the data were processed

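Libraries were made from total RNA depleted of ribosomal RNA with the Ribo-Zero and ScriptSeq kits, per the labels' protocols. The authors deposited raw read counts per gene symbol. Bowtie2, TopHat2, SAMtools, HTSeq and edgeR on the mm10 build are named, per the submitters' processing notes. Tool versions, gene annotation and strand handling are not stated there, so reads of overlapping or antisense genes may be mixed. A second table deposited by the authors holds their own comparison, with log2 values (fold change and CPM), a likelihood ratio score, p-values and, for some rows, a linear ratio, per the file headers. By comparison with the counts its direction is wildtype over mutant, and it was turned round here.

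The 23337 gene rows were fitted with edgeR 4.0.16 (R 4.3.3) using TMM scaling, filterByExpr, the quasi-likelihood F test and Benjamini-Hochberg adjustment over all 14316 tested genes, with a threshold of 0.05. The rows for reads outside features (51.8% to 54.4% of tallied reads), with several alignments (16.1% to 17.0%) or ambiguous (0.187% to 0.210%) were left out. CPM is relative to TMM-scaled totals, with a prior count of 2 before log2. Standard errors were derived from the F statistic. Transcript lengths are those of the shortest principal transcript in GENCODE M21 (GRCm38, the mm10 assembly), found for 22844 rows. Start windows are from RefSeq. The fits were tested on simulated counts with known changes. Without the replicate block, 65 of 98 genes changed 2-fold and 93 of 98 changed 4-fold were recovered, with 14 false calls. With the block, 71 of 98 and 95 of 98 were recovered, with 29 false calls.

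The members and gene lists were chosen with earlier results of these data known. Values were named for the members highest and lowest in fold change, highest per length, all paralogs and members with stated roles, and from each other list for the 2 genes of highest mean CPM. Rps14, Rpl37, Rpl39, Rpl41, Rps20, Myc, Eif1 and Nppa were named after their values were seen. Replicate numbers were read as pairs because the design text speaks of paired samples and littermates. Same-numbered deviations correlated at 0.144 over all tested genes and at 0.0229 with a filter of CPM over 5 in 2 libraries. Alternatives covered the replicate block, scaling, filters, DESeq2 1.42.0, the likelihood ratio test, limma-voom (limma 3.58.1), transcript length, pseudogene rows, unique sequence, the threshold and each library left out.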

Additional observations from a re-analysis of the deposited data

How the results depend on the processing

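The count of ribosomal protein genes past the threshold was 0 in every setting that kept all 4 libraries, and 0 to 7 with a library left out. The number of all tested genes past it was 9, against 127 with the replicate block, which pairs libraries by number, 129 with that block and the length trend removed, 236 with no low count filter, 61 by DESeq2, 171 by the likelihood ratio test, 24 at an adjusted p of 0.10, and 3 to 443 with a library left out. Members higher at an unadjusted p under 0.05 numbered 2, against 4 with no low count filter, 4 with the length trend of the fold change removed, 4 with the length trend of each library removed, and 0 to 17 with a library left out. Members lower numbered 0, against 2 with no low count filter and 1 to 31 with a library left out. The median log2 fold change was -0.03, with -0.04 to 0.01 over the settings with all libraries and -0.26 to 0.14 with a library left out. The block changed no call of a named member. The setting that removes each library's length trend and the one that leaves out members with under 50% unique stretches were chosen after seeing the data; in the second the pair medians were -0.32 and 0.20. Except for the named effect of fewer samples, the cause of these shifts was not tested. With 2 libraries a genotype and a median standard error of 0.18, small differences in single members were not detectable.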

Other observations

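Rows of 3 pseudogenes that carry the name of a member held enough reads to be tested, and they stood outside the comparison. Rps15a-ps6 had 452 and 425 reads in the mutants and 546 and 365 in the wildtype. Rps15a-ps4 had 104 and 64 reads in the mutants and 160 and 91 in the wildtype, and Rps19-ps3 had 87 and 28 in the mutants and 65 and 27 in the wildtype. None passed, with edgeR adjusted p of 0.991, 0.795 and 0.985 for the 3 rows in this order.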
